A study of Mus musculus with 12 samples.

Results

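Isg15 and the 4 enzyme genes that attach it to proteins or take it off, Uba7, Ube2l6, Herc6 and Usp18, were followed in mouse eyelid tissue from animals fed standard or high-fat chow. The 5 genes were taken by symbol from a table of 21936 genes, and all 5 were found once. They were selected on earlier results of these data, the lower FPKM of interferon-stimulated genes in high-fat libraries, so their own diet differences are given as a description, without a test. Libraries came from male C57BL/6 mice that were 6 to 8 weeks old at the start, lived with 12 h of light per day and had 1 week to adapt. Control mice ate a standard diet with 10 kcal% fat and high-fat mice a diet with 60 kcal% fat, for 3 months per the sample labels and 4 months per the series text. Tissue was taken at 9h, 15h or 21h, with 2 libraries for each diet and time and 12 in all. No agent or allele other than the diet was named. Whether RNA of several mice was pooled in a library is not stated, and p-values therefore cover only the differences among these libraries, which may be technical. The labels name the meibomian gland, a lipid-secreting gland, but upper and lower eyelids were collected whole according to the series text. Summed FPKM of 12 meibocyte markers was 6629 to 9715 in controls and 7201 to 11333 in high-fat libraries, and that of 8 skeletal muscle markers was 2415 to 5707 and 2317 to 6054, so both tissues were present.

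ISG15 is a ubiquitin-like protein made in response to interferon and joined to other proteins by its own enzyme chain. Uba7 is the E1 enzyme that activates it, Ube2l6 the E2 enzyme that carries it, and Herc6 the main ligase (E3) that transfers it in mice. Usp18 removes ISG15 from its targets, and it also binds the type I interferon receptor and dampens its signal. All 5 genes are known interferon-stimulated genes. Only RNA was measured here, not free ISG15 or its conjugates.

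The genes lie on 4 chromosomes of the mouse build GRCm38, by the GENCODE M21 annotation. Isg15 (ENSMUSG00000035692) spans 156199424 to 156200818 on the minus strand of chromosome 4, with 756 merged exon bases. Uba7 (ENSMUSG00000032596) spans 107975505 to 107984060 on the plus strand of chromosome 9, and Ube2l6 (ENSMUSG00000027078) 84798828 to 84810335 on the plus strand of chromosome 2. Herc6 (ENSMUSG00000029798, 57581000 to 57664632) and Usp18 (ENSMUSG00000030107, 121245906 to 121270917) are both on the plus strand of chromosome 6. Exons of Herc6 share 1269 bases with the noncoding Gm45193 and exons of Uba7 share 233 bases with Gm20661, both on the same strand. Exons of Usp18 share 124 bases with the opposite-strand Gm44148. A processed pseudogene, AC151275.1, matches Isg15 transcripts at 95.2% over 482 bases. Ube2l6 transcripts match Gm17167 at 95.1% over 508 bases and Ift46 at 96.5% over 260 bases. No source used here gives the strand setting or the handling of shared reads, so some reads of these genes could belong to the other gene.

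Promoter sequences from RefSeq (GRCm38.p6, 250 bases before to 50 after the start) matched 4 of the 5 genes: Isg15, Uba7, Ube2l6 and Herc6. They were searched on both strands for the core of the interferon-stimulated response element (GAAA, any 2 bases, GAAA), for the shorter AANNGAAA, which lies within that core, and for TTCNNNGAA, the core of the gamma-activated site. The Isg15 promoter, chr4:156200769-156201068 on the minus strand, is shown because it was the 1 promoter of the 4 with the full core. It held 3 overlapping matches, the outermost bases 78 and 57 bases upstream of the start, marked in capitals. The Uba7 promoter, chr9:107975317-107975616 on the plus strand, is shown beside it with its single AANNGAAA match in capitals, 27 to 20 bases upstream and on the reverse strand.
Isg15: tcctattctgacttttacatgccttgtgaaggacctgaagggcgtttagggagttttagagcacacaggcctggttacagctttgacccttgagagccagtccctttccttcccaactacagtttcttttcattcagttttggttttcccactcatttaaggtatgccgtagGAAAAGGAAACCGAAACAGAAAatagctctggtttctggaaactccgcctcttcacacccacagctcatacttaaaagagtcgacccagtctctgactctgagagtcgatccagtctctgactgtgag
Uba7: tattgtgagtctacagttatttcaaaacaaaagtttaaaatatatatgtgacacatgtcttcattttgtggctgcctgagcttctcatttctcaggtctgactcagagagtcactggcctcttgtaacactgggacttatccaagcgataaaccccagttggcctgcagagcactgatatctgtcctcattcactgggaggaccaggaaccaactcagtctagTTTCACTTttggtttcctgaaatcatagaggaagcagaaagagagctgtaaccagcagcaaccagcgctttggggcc
The full core was in 3.44% of all 32851 promoters of this length, AANNGAAA in 23.9% and TTCNNNGAA in 8.3%. The windows of Ube2l6 and Herc6 held none of the 3 motifs.

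All 5 genes were lower in the high-fat libraries, and for each of the 5 the highest of the 6 high-fat values was below the lowest of the 6 control values. Among all 13228 genes tested, 1.86% showed this order. Isg15 was 6.67-fold lower by the ratio of mean FPKM, Usp18 3.64-fold, Herc6 2.98-fold, Ube2l6 2.67-fold and Uba7 1.71-fold. FPKM is a read count scaled for exon length and library depth. These are the values for which the genes were chosen, and they support nothing further. Because each library is bulk tissue, fewer cells of a type and less RNA per cell cannot be told apart.

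Isg15, the modifier, had the highest mean FPKM of the 5. In controls it was at 85.9 and 79.0 FPKM at 9h, 98.0 and 125 at 15h, and 55.5 and 122 at 21h. In high-fat libraries it was at 6.36 and 14.2 FPKM at 9h, 23.4 and 5.44 at 15h, and 14.4 and 20.9 at 21h. The control libraries were all above 55 FPKM and the high-fat libraries all below 24, and the lowest control exceeded the highest high-fat library 2.37-fold. The means were 94.2 ± 26.5 and 14.1 ± 7.31 FPKM (SD, n = 6 each), a log2 difference of -2.77 ± 0.34 (SE) on the log2(FPKM + 1) scale averaged over times. The reads behind these values were 61 to 271 per library in high-fat mice and up to 1488 in controls.

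Uba7, the E1 enzyme, differed least. It was at 5.12 and 4.98 FPKM at 9h, 6.07 and 8.53 at 15h, and 6.08 and 6.88 at 21h in controls. In high-fat libraries it was at 4.14 and 2.34 FPKM at 9h, 4.40 and 3.91 at 15h, and 3.02 and 4.25 at 21h. The groups came close, with the lowest control 1.13-fold above the highest high-fat library. The log2 difference was -0.64 ± 0.13 (SE).

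Ube2l6, the E2 enzyme, had the highest mean FPKM of the 4 enzymes, though its 5130 reads over all libraries were fewer than the 6387 of Uba7. Control values of Ube2l6 were 17.97 and 11.06 FPKM at 9h, 19.2 and 26.5 at 15h, and 21.7 and 20.9 at 21h. Its high-fat values were 8.10 and 4.82 FPKM at 9h, 8.73 and 6.15 at 15h, and 6.93 and 9.16 at 21h. The control library at 9h with 11.06 FPKM was the only control under 17 FPKM, and it still lay above all high-fat libraries. The log2 difference was -1.29 ± 0.16 (SE).

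Herc6, the ligase, had the lowest mean FPKM of the 5 and the longest merged exons (9292 bases). By reads over all libraries it was not the lowest, at 3302 against 3122 for Usp18. Herc6 was at 1.99 and 1.76 FPKM at 9h, 2.77 and 3.96 at 15h, and 2.69 and 3.55 at 21h in controls. High-fat libraries had 0.673 and 0.481 FPKM at 9h, 1.42 and 0.816 at 15h, and 0.947 and 1.27 at 21h. Both diets had their lowest values at 9h. The log2 difference was -0.96 ± 0.11 (SE) on the log2(FPKM + 1) scale, which understates differences at such low levels. It was -1.50 with a pseudocount of 0.1 and -1.60 by limma-voom on the recovered reads, which puts Herc6 past Ube2l6 (-1.39 in both).

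Usp18, the ISG15 protease, differed most among the enzymes. Its control values were 6.90 and 6.27 FPKM at 9h, 8.44 and 11.7 at 15h, and 9.22 and 12.6 at 21h. Its high-fat values were 1.87 and 2.35 FPKM at 9h, 4.70 and 1.66 at 15h, and 2.64 and 1.90 at 21h. The high-fat library with 4.70 FPKM, HF_15h replicate 2, stood apart from the other 5, which were at or below 2.64. The log2 difference was -1.55 ± 0.18 (SE).

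**Figure D1:**
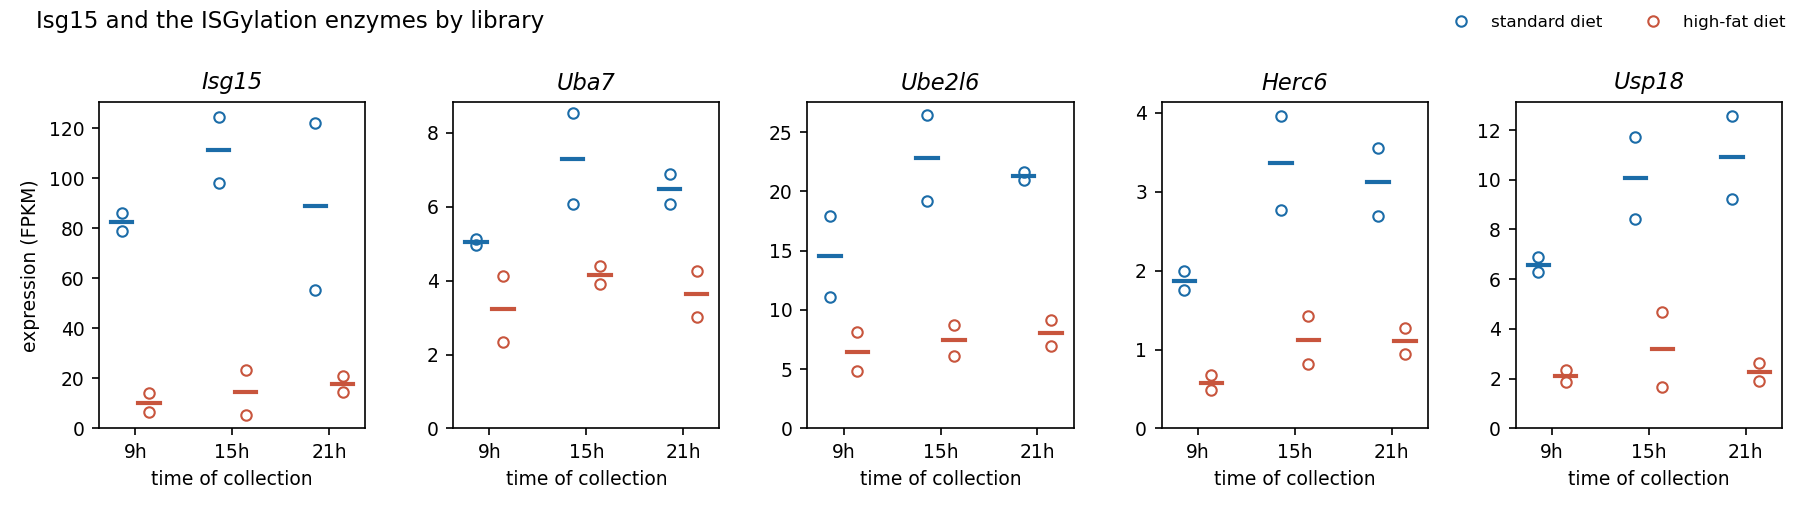
Expression in FPKM (y axis, linear from 0) of the 5 genes at each time (x axis), with 1 open circle per library and a bar at the mean of 2 libraries, blue for the standard and red for the high-fat diet. Every high-fat circle of a gene lies below every control circle of that gene, most widely for Isg15 and least for Uba7.

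The diet difference had the same sign at each of the 3 times for all 5 genes, as it did in the negative direction for 21% of all genes tested. In all 15 combinations of a gene and a time, both high-fat libraries were below both control libraries, an order that 3.54% of all genes showed at all 3 times. At 9h, 15h and 21h the log2 differences of Isg15 were -2.98, -3.15 and -2.18, each ± 0.59 (SE). Those of Usp18 were -1.29, -1.49 and -1.86, each ± 0.32. Those of Ube2l6 were -1.06, -1.50 and -1.31 (± 0.28), those of Herc6 -0.87, -1.05 and -0.96 (± 0.20), and those of Uba7 -0.55, -0.67 and -0.70 (± 0.22). The point estimate was smallest at 21h for Isg15 and largest at 21h for Usp18. Leaving out 1 high-fat library of 15h moved the difference at that time most: with HF_15h replicate 6 left out Isg15 was at -2.19 and Usp18 at -0.94, and with HF_15h replicate 2 left out they were at -4.11 and -2.04. At 9h Uba7 was at -0.24 without HF_9h replicate 7 and -0.86 without HF_9h replicate 6.

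Whether the diet difference depends on the time of day was tested with the interaction of diet and time, which the choice of the genes did not use. None of the 5 genes was called by the limma F test, with unadjusted p of 0.496 for Isg15, 0.87 for Uba7, 0.561 for Ube2l6, 0.817 for Herc6 and 0.47 for Usp18, and an adjusted p of 0.999 for each. Over all genes 0% were called and 3.06% (405) were under 0.05 before adjustment. With limma-voom on the recovered reads 0 were called and 376 were under 0.05 before adjustment. The spread left wide margins. The diet difference at 21h minus that at 9h was 0.80 ± 0.84 (SE) for Isg15 and -0.57 ± 0.45 for Usp18, so a dependence on time of that size could not be told from none.

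**Figure D2:**
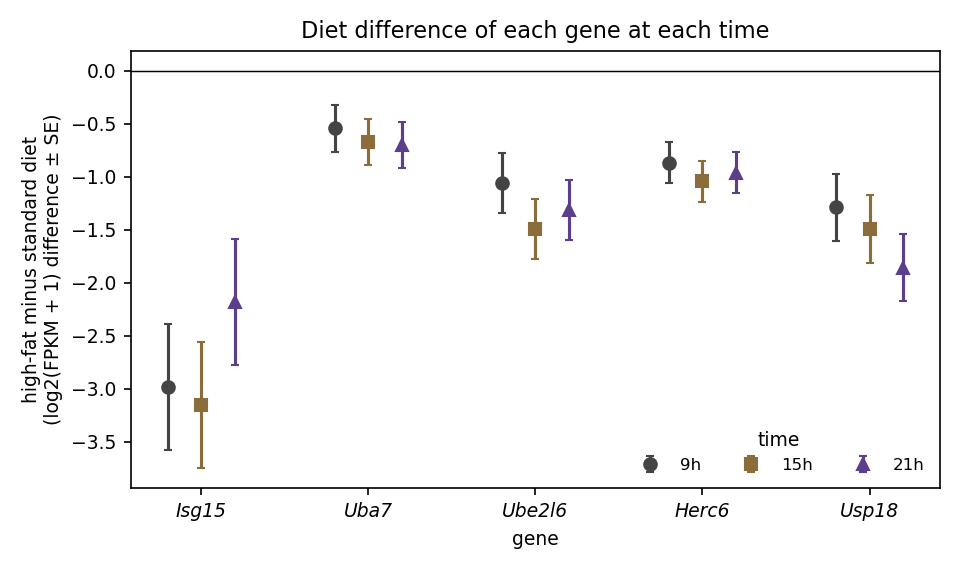
Diet difference (y axis, high-fat minus standard diet on the log2(FPKM + 1) scale, with SE from the fit of all 12 libraries) of the 5 genes (x axis) at 9h, 15h and 21h. All 15 estimates are below 0, from -3.15 for Isg15 at 15h to -0.55 for Uba7 at 9h.

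Within the control diet, all 5 genes had their lowest mean at 9h. From 9h to 15h the control mean of Herc6 went from 1.87 ± 0.165 to 3.37 ± 0.844 FPKM (SD, n = 2 each), that of Ube2l6 from 14.5 ± 4.88 to 22.8 ± 5.14, that of Usp18 from 6.59 ± 0.446 to 10.1 ± 2.31 and that of Uba7 from 5.05 ± 0.101 to 7.30 ± 1.74. These changes did not pass the test of time. The limma F test gave adjusted p of 0.225 for Herc6, 0.348 for Ube2l6, 0.422 for Usp18, 0.449 for Uba7 and 0.868 for Isg15. Herc6 was the 1 gene of the 5 with an unadjusted p under 0.05 (0.028), which 18.3% of all genes had, while 0.0227% were called. Isg15 had control means of 82.5 ± 4.88, 111 ± 18.8 and 88.9 ± 47.2 FPKM, with the libraries of 21h more than 2-fold apart.

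Time in high-fat mice gave no call either. Adjusted p by the limma F test was 0.666 for Herc6 and 0.824 to 0.872 for the other 4, with 0% of all genes called and 8.73% (1155) at an unadjusted p under 0.05. With limma-voom 0 were called as well, and 1092 were under 0.05 before adjustment. Herc6 had high-fat means of 0.577 ± 0.136, 1.12 ± 0.426 and 1.11 ± 0.232 FPKM at 9h, 15h and 21h (SD, n = 2 each). Isg15 had means of 10.3 ± 5.54, 14.4 ± 12.7 and 17.7 ± 4.55 FPKM. In each of 18 alternative fits the adjusted p of the 5 genes was above 0.05 for both tests of time and for the interaction.

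Since the genes differed to unequal extents, the balance between modifier and enzymes was not the same on both diets. Uba7 FPKM was 5.63% to 10.96% of Isg15 FPKM in controls (median 6.25%) and 16.5% to 71.9% in high-fat libraries (median 20.7%). Ube2l6 FPKM ranged up to 39.04% of Isg15 (median 20.3%) in controls and from 33.9% to 127% in high-fat libraries, and it exceeded Isg15 in 2 high-fat libraries, HF_9h replicate 6 and HF_15h replicate 6. For Herc6 the shares were 2.22% to 4.84% and 3.39% to 15.0%, and for Usp18 7.93% to 16.6% and 9.09% to 30.5%. Of these 4 shares of Isg15, that of Uba7 was the 1 that did not overlap between diets.

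The FPKM order of protease and activating enzyme also turned in some libraries. An order of FPKM between genes depends on the merged exon length used, 6692 bases for Uba7 and 2790 for Usp18. By reads, Uba7 was above Usp18 in every library, as with 582 and 327 in CTL_9h replicate 2. The order by FPKM may therefore not be that of the transcripts. Usp18 FPKM was above Uba7 FPKM in 6 of 6 controls, at 126% to 183% of it. In high-fat libraries it was below Uba7 in 4 of 6, at 42.4% to 107%. The libraries HF_9h replicate 6, HF_15h replicate 6 and HF_21h replicate 6 had the lowest shares, with 45.2%, 42.4% and 44.6%. In controls the order of mean FPKM was Isg15, Ube2l6, Usp18, Uba7 and Herc6. The neighbours Usp18 (9.19 ± 2.54 FPKM) and Uba7 (6.28 ± 1.31) were the closest pair there. In high-fat libraries Uba7 (3.68 ± 0.816) and Usp18 (2.52 ± 1.13) had the reverse order and overlapped (SD, n = 6 each). These ratios derive from the same diet difference, so they too are a description.

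**Figure D3:**
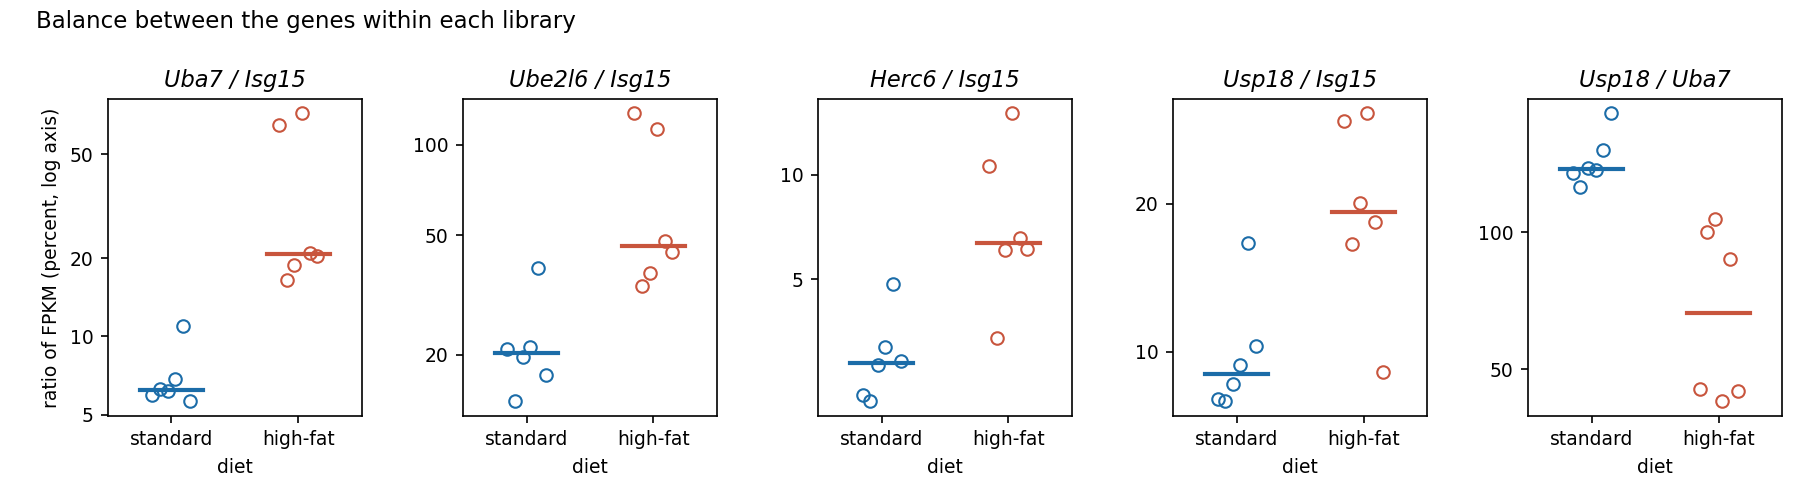
Ratio of FPKM between 2 of the genes within each library (y axis, percent, log axis, each panel with its own range) by diet (x axis), with 1 circle per library and a bar at the median of 6 libraries. The share of Uba7 relative to Isg15 is higher in each high-fat library, with a median of 20.7% against 6.25%, and that of Usp18 relative to Uba7 is lower, with 66.4% against 138%.

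The genes were further compared within a diet, where their diet difference plays no part. Among controls CTL_15h replicate 3 was highest for 4 of the 5 genes and CTL_9h replicate 3 lowest for 4. Among high-fat libraries HF_15h replicate 2 was highest for 4, and HF_9h replicate 7 was lowest for Uba7, Ube2l6 and Herc6, whereas HF_15h replicate 6 was lowest for Isg15 and Usp18. The correlation of Isg15 with each enzyme was computed on log2(FPKM + 1) over the 6 libraries of each diet, 8 relations in all. In controls Pearson r was 0.604 for Uba7, 0.335 for Ube2l6, 0.607 for Herc6 and 0.554 for Usp18, with Spearman rho of 0.657, 0.429, 0.829 and 0.6. In high-fat libraries r was -0.0245, 0.337, 0.613 and 0.676, and rho 0.543, 0.657, 0.771 and 0.829, in the same order. The smallest 2-sided exact permutation p, over 720 orders, was 0.129 for r (Usp18 in high-fat libraries) and 0.0583 for rho (Herc6 in controls and Usp18 in high-fat libraries). After adjustment over the 8 relations the exact permutation p was at least 0.384 for r and 0.233 for rho. The relations were computed again without the 2 libraries farthest from the median of Isg15 on that log scale. These were CTL_21h replicate 1 and CTL_15h replicate 3, or HF_15h replicate 6 and HF_9h replicate 6. Over the remaining 4, r was 0.797 to 0.996 in controls and 0.472 to 0.944 in high-fat libraries. In high-fat libraries r went from -0.0245 to 0.944 for Uba7 and from 0.676 to 0.472 for Usp18. With 4 libraries and no test, these values show only that r hung on single libraries.

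The gene most like Isg15 over the 12 libraries, after the mean of each diet was subtracted, was Irf7, the interferon-induced transcription factor that amplifies the interferon response (r = 0.971). Next were Ifit1, which binds viral RNA (0.915), Oas1a, an oligoadenylate synthetase (0.898), Pigk (0.868) and Pot1a (0.858). By the same measure the enzymes were less like Isg15, with r of 0.619 for Usp18, 0.564 for Herc6, 0.306 for Ube2l6 and 0.177 for Uba7. Among the conjugating enzymes r was 0.83 for Uba7 and Ube2l6, 0.827 for Uba7 and Herc6, and 0.838 for Ube2l6 and Herc6. In these pairs the partner ranked 187 to 359 among all genes by likeness, so many other genes were more like each enzyme. The genes most like Herc6 were Oas2 (0.975), Phf11d (0.974) and Slc35d2 (0.97), and those most like Ube2l6 were Ssr1 (0.97), Trim30a (0.968) and Dync1i2 (0.963). Those most like Uba7 were Slc4a7 (0.976), Cep70 (0.966) and Adat1 (0.962), and those most like Usp18 were Apol9b (0.936), Rtp4 (0.889) and Mfap1b (0.887). These values describe 12 libraries, in which all genes share each library's preparation and depth, and carry no p.

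The relatives of the 5 genes were listed by family, with earlier results of these data known, and were tested for a diet difference by limma on log2(FPKM + 1) with Benjamini-Hochberg adjustment over all 13228 genes. Of 108 tested genes for ubiquitin, other ubiquitin-like modifiers and the other E1, E2, HERC and USP genes, 1 fell and 1 rose. That is 1.85%, beside 1.98% of all genes, of which 1.78% were lower and 0.204% higher. Their median log2 difference was 0.01, and that of all genes tested was -0.01. All but 1 of them lay within 0.5 of 0 on the log2 scale.

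Among 21 other modifiers Ubd fell. It encodes FAT10, a ubiquitin-like protein induced by interferon gamma and tumour necrosis factor, and its log2 difference was -2.47 ± 0.28 (7.91 ± 3.6 to 0.595 ± 0.576 FPKM, n = 6 each, limma adjusted p = 0.00354). It was -4.01 with a pseudocount of 0.1 and -4.45 by limma-voom, past Isg15 at -2.87 and -2.88. The ubiquitin gene Ubb (417 ± 34.9 and 403 ± 50.2 FPKM) and the modifier Nedd8 (56.5 ± 6.58 and 52.4 ± 8.38) had log2 differences of -0.05 and -0.11 and were not called. Ubd was the 1 modifier that, like Isg15, had all high-fat libraries below all controls among these 3.

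None of the 9 other E1 genes was called. Uba1, the main ubiquitin-activating enzyme and the relative of Uba7, was at 47.8 ± 4.75 FPKM in controls and 44.2 ± 6.03 in high-fat mice, a log2 difference of -0.11 ± 0.08. Uba6, which activates ubiquitin and FAT10, had -0.07 ± 0.09. None of 31 tested E2 genes was called either, and Ube2l3, the closest relative of Ube2l6, was at 20.05 ± 1.36 and 17.99 ± 1.53 FPKM (-0.15 ± 0.06, limma adjusted p = 0.309). The 4 other HERC genes had positive values of 0.08 to 0.18 with no call, with Herc3 at 0.08 ± 0.08 and Herc4 at 0.18 ± 0.08. Ube2l3 and Ube2l6 had means of 20.05 and 19.55 FPKM in controls, and of 17.99 and 7.31 in high-fat mice.

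Of 43 tested USP proteases Usp2, a ubiquitin protease under clock control in several tissues, rose, at 6.12 ± 0.57 and 8.47 ± 2.78 FPKM with a log2 difference of 0.37 ± 0.08 (limma adjusted p = 0.0428). Its difference was 0.91 at 9h, 0.24 at 15h and -0.05 at 21h. The call was lost in 11 of 12 fits without 1 library, with adjusted p up to 0.143 (without CTL_9h replicate 2). It was also lost without the filter, with median-ratio scaling (adjusted p = 0.0761), by limma-voom (0.0501), with the replicate block (0.322) and without HF_15h replicate 6 and HF_21h replicate 6 together. Usp5 and Usp14, which act on ubiquitin and have been reported to react with ISG15 as well, had differences of 0.04 and -0.01.

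Of the other ligases reported to attach ISG15, Trim25 fell and Arih1 did not pass. Trim25 went from 18.4 ± 1.57 to 13.1 ± 1.81 FPKM (-0.47 ± 0.08, limma adjusted p = 0.0162), with all 6 high-fat libraries below all 6 controls. Its adjusted p was up to 0.0683 (without CTL_15h replicate 3), and leaving out 1 library ended the call in 3 of 12 fits. Arih1 was at 23.0 ± 2.22 and 24.4 ± 0.966 FPKM (0.09 ± 0.05).

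**Figure D4:**
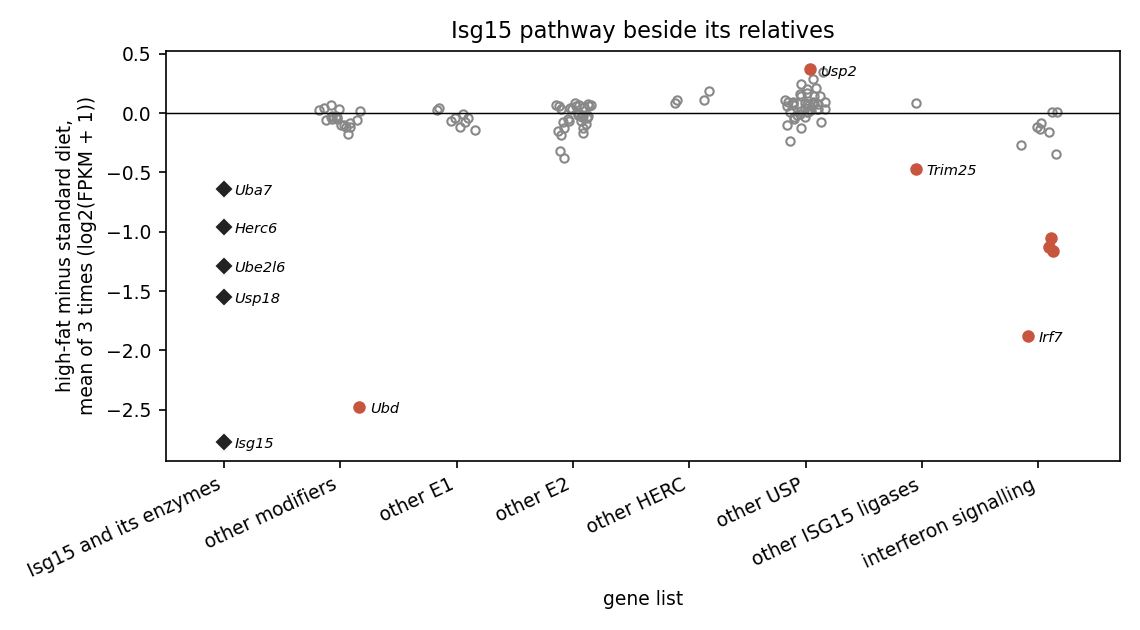
Diet difference averaged over times (y axis, high-fat minus standard diet on the log2(FPKM + 1) scale) of single genes by list (x axis). Diamonds are Isg15 and its 4 enzymes, shown without a test. Filled red circles are other genes with an adjusted p under 0.05 and open circles the rest of the genes drawn, which leave out a few listed genes. Among the modifier, E1, E2, HERC, USP and other ligase lists, Ubd at -2.47 is the 1 gene within the range of Isg15 and the enzymes, between Usp18 and Isg15. Irf7, Stat2, Irf9 and Irf1 of the interferon signalling list also lie within that range.

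Of the 13 genes of interferon signalling, 5 fell and none rose, beside 1.78% lower and 0.204% higher among all genes tested. Among them were the transcription factors Irf7 (21.4 ± 3.94 to 5.23 ± 1.68 FPKM, -1.87 ± 0.17), Stat2 (16.5 ± 5.33 to 6.76 ± 2.22, -1.16 ± 0.15), Irf9 (16.9 ± 4.57 to 7.34 ± 2.91, -1.13 ± 0.19) and Irf1 (29.8 ± 5.79 to 14.2 ± 4.03, -1.05 ± 0.15). For these 4 genes limma adjusted p was 0.00183 to 0.016. High-fat and control libraries overlapped for Stat2 and Irf9 and not for Irf7 and Irf1. All high-fat libraries were below all controls for 1.86% of all genes tested. Leaving out 1 library ended the call of Irf9 in 4 of 12 fits, with adjusted p up to 0.0671. These genes are themselves induced by interferon, and the list was fixed with the fall of interferon genes known. The receptor chains had smaller values, with Ifnar1 at -0.11 ± 0.08 and Ifnar2, the chain that USP18 binds, at -0.27 ± 0.12, and neither was called. The integrin chains Itgal and Itgb2, which form LFA-1, a receptor for free ISG15, had differences of -0.41 ± 0.17 and -0.52 ± 0.23 and were not called (limma adjusted p = 0.319 and 0.358).

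The interferon genes themselves were near the limit of detection, and 0 of 21 passed the filter on low values. Ifnl2 and Ifnl3, which encode type III interferon, a group that acts mainly on epithelia, together had 2 and 11 reads in the control libraries at 9h, 3 and 15 at 15h, and 7 and 6 at 21h. In the high-fat libraries they had 0 reads in 6 of 6. Each gene alone had reads in 5 of 6 controls, with Ifnl2 at 0 in CTL_9h replicate 2 and Ifnl3 at 0 in CTL_9h replicate 3. No share of genes below the filter with such an order is given. Scaled for depth, the 44 reads in controls were 14.3-fold the 3 reads that a count of 0 allows over the high-fat group. This figure leaves out the counting error of the 44 reads and the spread among libraries, so it is not a lower bound. Ifng, the type II interferon of T and NK cells, had 44 reads in controls (1 to 17 per library) and 10 in high-fat libraries (0 to 3), which overlap. Of type I genes, Ifnb1 had 1 read in all, none of the Ifna genes had more than 4, and Ifnz had 7 (4 in controls and 3 in high-fat libraries). In a fit without the filter on low values, limma adjusted p was 0.351 for Ifnl2, 0.128 for Ifnl3 and 0.115 for Ifng. Ifnl2 and Ifnl3 are close copies between which reads could have been split, and they were singled out after their values were seen.

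**Figure D5:**
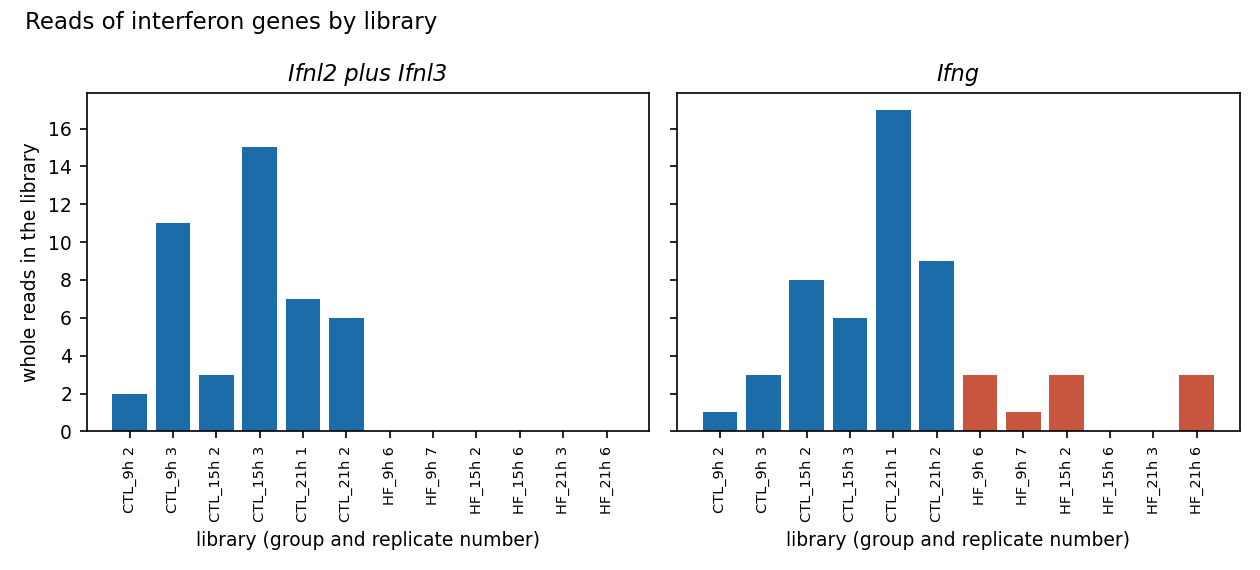
Whole reads per library (y axis, linear from 0) of Ifnl2 plus Ifnl3 and of Ifng in each library (x axis, group and replicate number), blue for the standard and red for the high-fat diet. All 6 controls have 2 to 15 reads of Ifnl2 plus Ifnl3 summed and all 6 high-fat libraries have 0. Each of these 2 genes alone has reads in 5 of 6 controls.

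Some markers of lymphocytes were called lower in high-fat libraries, as were 1.78% of all genes tested. Of 11 T cell markers 6 fell (Cd3d, Cd2, Cd5, Cd8a, Cd8b1 and Lck), and their summed FPKM was 46.4 to 73.6 in controls and 29.7 to 41.0 in high-fat libraries. Of 9 NK and cytotoxic markers 5 were tested and 3 fell (Gzma, Gzmb and Nkg7), with sums of 21.9 to 49.1 and 3.58 to 11.1 FPKM. The NK receptor gene Ncr1 was at 0.543 FPKM or less. None of 10 macrophage markers was called, with sums of 806 to 1429 and 338 to 1096 FPKM. Of these 10 markers, 9 still had a log2 difference below 0. Their median was -0.53, beside -0.57 for the T cell markers. Of 6 B cell markers 1 of 4 tested fell (Cd79b), with sums of 2.09 to 10.1 and 0.931 to 2.80 FPKM. For plasmacytoid dendritic cells, Bst2, itself an interferon-stimulated gene, was the 1 of 4 tested that fell, and the defining marker Siglech was at 0.661 FPKM or less. No marker list had a gene at 0 in all high-fat libraries, and of the 12 meibocyte markers none fell and Soat1 rose. Their part in the result was not tested.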

How the data were processed

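The deposited table holds FPKM values for 21936 genes in 12 libraries. Per the submitters' processing notes, HISAT2 2.0.5, HTSeq 0.9.1 and DESeq 1.30.0 were used with build mm9. No source used here gives the step to FPKM, the strand setting or the annotation. With merged exon lengths of GENCODE M21 (GRCm38), available for 21894 genes, 98.1% to 98.2% of nonzero values were whole reads within 0.02 reads, which gave 14096364 to 17889159 reads per library. Coordinates are from that annotation.

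limma 3.58.1 in R 4.3.3, with a mean-dependent prior, was fitted to log2(FPKM + 1). A gene entered when 2 or more libraries exceeded 1 FPKM, which left 13228. The model had a mean for each of 6 groups, with 6 residual degrees of freedom. Calls had a Benjamini-Hochberg adjusted p under 0.05. The test was checked on simulated data. Permutations and summaries used Python 3.11.15 with scipy 1.17.1. Members and lists were chosen with earlier results of these data known. Named genes are the 5 members, called genes of each list, their closest relatives and the genes most like each member. Transcript copies were searched with blastn, with at least 95% identity over 200 bases. Alternatives were a pseudocount of 0.1, no filter, median-ratio scaling, a replicate block, limma-voom on recovered reads and leaving out libraries. Some listed genes are not reported here by name.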

Additional observations from a re-analysis of the deposited data

Results flagged for a closer look

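Usp18 in HF_15h replicate 2, at 4.70 FPKM, was far from the other 5 high-fat libraries, which were at 1.66 to 2.64 FPKM (gap of 0.676 of the range, above the critical value of 0.625 for 6 libraries). It was the 1 value to stand apart in 20 checks, the highest and the lowest library of each diet for 5 genes, and chance sets apart about 1 group in 20. The same library was the highest high-fat library for Isg15, Uba7 and Herc6.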

How the results depend on the processing

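The log2 diet difference averaged over times stayed negative for each of the 5 genes in all 18 alternatives, from -3.09 to -2.45 for Isg15, -1.92 to -1.17 for Usp18, -1.60 to -0.89 for Herc6, -1.40 to -1.10 for Ube2l6 and -0.77 to -0.54 for Uba7. No named direction of these genes at a single time turned. The count of all genes called for diet, 262, was 143 to 294 without 1 library: it was 169 when CTL_21h replicate 1 was left out, 159 for HF_21h replicate 3, 145 for CTL_9h replicate 2 and 143 for CTL_15h replicate 3. The count called for time in controls, 3, was 0 to 840 without 1 library (840 without HF_9h replicate 6 and 839 without HF_9h replicate 7), 1 without the filter, and 1 when HF_21h replicate 6 and HF_15h replicate 6, where immediate early genes were high, were both left out. That for time in high-fat mice, 0, was 0 to 63 without 1 library (63 without HF_9h replicate 6, 3 without HF_15h replicate 2). The interaction count was 0 throughout. The cause was not tested. With the label's number as a replicate block, which left 2 residual degrees of freedom, 0 genes were called for diet and 0 for time in controls. Whether same-numbered libraries share more than a number was not settled. Their deviations from the group means correlated at -0.502 to 0.289. With 2 libraries in a group the deviations mirror each other, so these values cannot decide it. Depth limits Isg15, Usp18 and Herc6 in high-fat mice, with 61, 69 and 73 reads in their lowest libraries, and the interferon genes.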
